A study of Mus with 6 samples.

Results

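Metallothioneins are small, cysteine-rich proteins that bind zinc and copper. Together with the zinc sensor Mtf1 and with zinc carriers of the SLC30 and SLC39 families they set how much free zinc a cell holds. SLC30 proteins move zinc out of the cytosol and SLC39 proteins move it in. Zinc has a special place in the hippocampus, where the mossy fibers of dentate granule cells store it in synaptic vesicles and release it with glutamate. Mt1 and Mt2 are made largely by astrocytes in the brain, and their genes are induced by metals, through Mtf1, and by glucocorticoids, the hormones of the stress response. The level of these genes was therefore examined in the hippocampus of mice subjected to forced swim stress (FSS).

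The genes examined were Mt1, Mt2, Mt3, Mt4, Mtf1, Slc30a1, Slc30a3 and Slc39a14, 8 genes of the 19938 that the arrays measure with rows carrying a single gene symbol. They were chosen by name for their part in zinc handling, with earlier results of these data known, and each was represented by 1 row. In the RefSeq annotation Mt4, Mt3, Mt2 and Mt1 lie in this order in 1 cluster, with the noncoding gene Gm39227 between Mt3 and Mt2. FSS mice (n = 3) swam for 11 min per day on 5 consecutive days in water at 25 °C with a depth of 25 cm, and control mice (n = 3) did not swim. All were male C57BL/6JJmsSlc mice, given as 10 to 11 weeks old in the labels, with no transgene or drug, and the hippocampus was collected on Day 8 of the schedule. Before collection the study's schedule holds a tail suspension test, in which nonstressed control mice were measured too. RNA of each mouse was hybridized to its own 1-colour Affymetrix Mouse Gene 1.0 ST array, and the values are log2 levels made by robust multi-array averaging (RMA), so a difference of 1 is a doubling. The hippocampus was analysed as bulk tissue, in which fewer cells of a type and less RNA per cell cannot be told apart.

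None of the 8 genes differed between FSS and control mice beyond the spread between mice. With limma, whose estimate of the spread of a gene borrows from all other genes, 0 of 8 were called at the thresholds of the study (a log2 fold change over 0.5 in size with an unadjusted p under 0.05), against 0.0688% of the 21789 rows tested. At an unadjusted p under 0.05 alone 0 of 8 passed, against 5.14% of all rows (2.49% higher and 2.66% lower in FSS mice). The groups overlapped for all 8 genes, and they did not for 10.3% of all rows. Among only 8 genes, counts of 0 cannot be told from these shares. The log2 fold changes of the 8 genes, FSS minus control, ran from -0.096 for Mt1 to 0.060 for Mt4, with a median of -0.015, against a median of 0.0049 over all rows. Their 95% intervals all lay between -0.5 and 0.5, as did those of 96.5% of all rows. The spread of 6 arrays sets this precision. With 3 mice per group an exact permutation test cannot go below p = 0.1, and no row of the table passed an adjusted p of 0.05 (smallest adjusted p = 0.872 from limma).

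**Figure D1:**
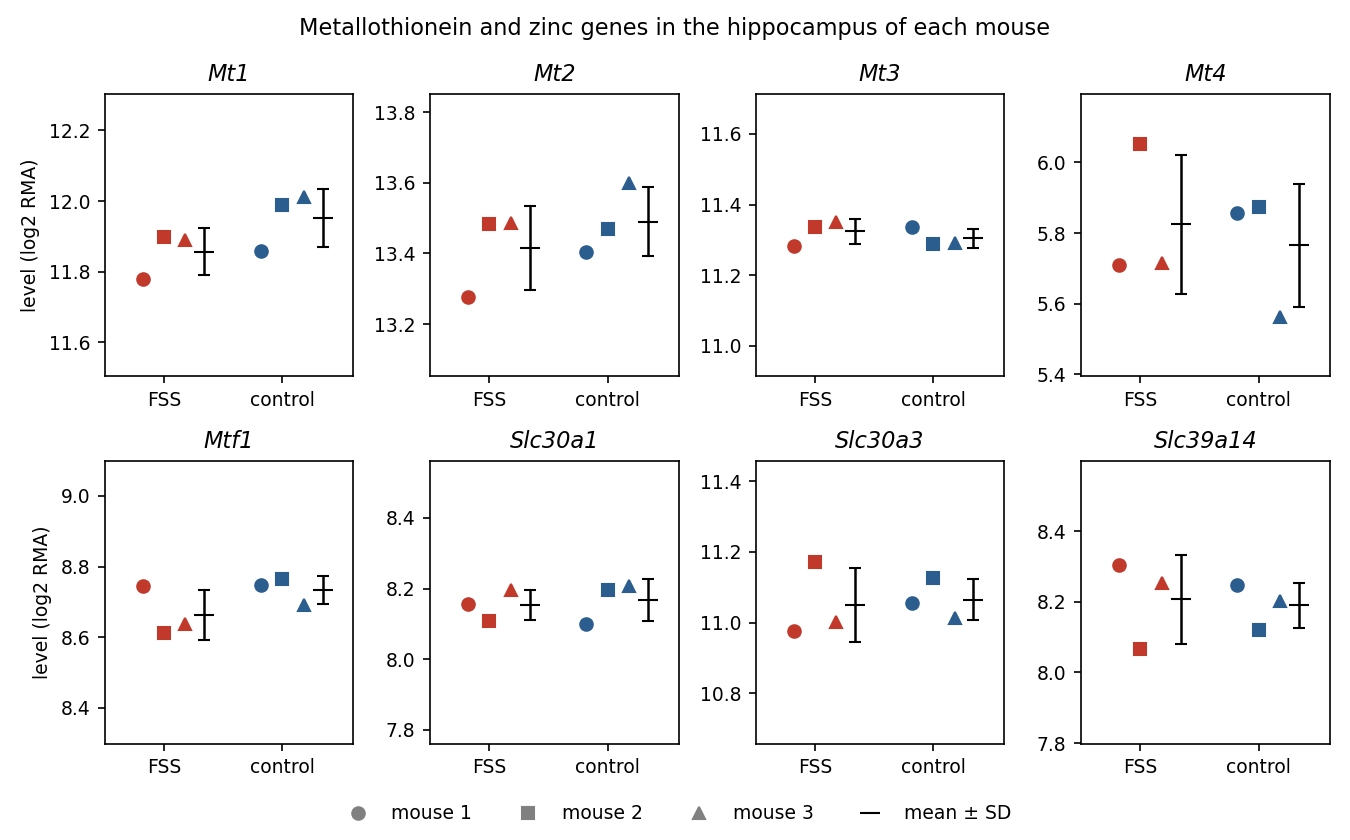
Level (log2 RMA, y axis) of each gene in FSS mice (left, red) and control mice (right, blue). Each symbol is a mouse, black bars give mean ± SD (n = 3), and every panel spans the same 0.8 log2 units. The groups overlap in every panel, and FSS mouse 1 is the lowest mouse for Mt1 (11.78) and Mt2 (13.28).

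Mt1 and Mt2 encode the widely expressed, inducible metallothioneins. Mt1 had levels of 11.78, 11.90 and 11.89 in FSS mice 1, 2 and 3, against 11.86, 11.99 and 12.01 in control mice 1, 2 and 3. FSS mouse 1 lay below every control mouse, while the other FSS mice lay between control mouse 1 and control mouse 2. The mean was 11.86 ± 0.066 in FSS mice and 11.95 ± 0.082 in control mice (SD, n = 3 each). The log2 fold change was -0.096 ± 0.060 (SE), with an adjusted p of 0.945 by limma. Its 95% interval, -0.24 to 0.046, spans 0.847-fold to 1.03-fold of the control level. With a variance trend and robust moderation in limma the same difference had an unadjusted p of 0.04998, and its limma adjusted p ranged from 0.701 to 1.00 over the alternatives.

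Mt2, which shares its inducers with Mt1, had levels of 13.28, 13.48 and 13.49 in FSS mice, against 13.40, 13.47 and 13.60 in control mice. Again FSS mouse 1 was lowest and control mouse 3 highest, and the other FSS mice fell inside the range of the controls. The mean was 13.42 ± 0.12 in FSS mice and 13.49 ± 0.099 in control mice (SD, n = 3 each). The log2 fold change was -0.075 ± 0.078 (SE, adjusted p = 0.971 by limma, 95% interval from -0.26 to 0.11). Leaving out FSS mouse 1 gave a log2 fold change of -0.0065, and leaving out control mouse 3 gave -0.021. Mt2 lies at percentile 99.9 of all rows in mean level, close to the top of the scale of the array.

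Mice differed in Mt1 and Mt2 more than in most of the 1000 rows nearest to each in mean level. Since Mt2 lies at percentile 99.9, the rows nearest to it are mostly dimmer. The SD between mice within groups was 0.11 for Mt2, larger than that of 98.3% of the 1000 rows nearest to it in mean level, and 0.075 for Mt1, larger than that of 93.2% of its nearest rows. Among the 8 genes this share ran from 25.7% for Slc30a1 to 98.3% for Mt2, and it was 93.1% for Slc30a3. From the lowest to the highest of the 6 mice Mt2 spanned 1.25-fold and Mt1 1.17-fold. The genes moved together among the mice, with Pearson's r = 0.89 over 6 mice (exact permutation p = 0.0167, adjusted p = 0.156 over 28 pairs of genes) and Spearman's rho = 0.77 (exact permutation p = 0.103, adjusted p = 0.70). The correlation of their deviations from the group means was 0.90. Without FSS mouse 1 and control mouse 3, the mice farthest from the median of Mt1, r was 0.43. Leaving out the farthest mice also narrows the range, so this cannot show whether the relation rests on them. Whether probes of Mt1 and Mt2 also bind each other's RNA was not tested.

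Mt3 encodes the brain-enriched metallothionein, also known as growth inhibitory factor, which is made by neurons and astrocytes and is not induced by metals like Mt1 and Mt2. Its levels were 11.28, 11.34 and 11.35 in FSS mice, against 11.34, 11.29 and 11.29 in control mice. The 6 mice lay within 1.05-fold of each other, the narrowest range of the 8 genes. The mean was 11.32 ± 0.036 in FSS mice and 11.30 ± 0.027 in control mice (SD, n = 3 each). The log2 fold change was 0.020 ± 0.042 (SE, adjusted p = 0.984 by limma). The 95% interval, -0.081 to 0.12, spans 0.945-fold to 1.09-fold of the control level.

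Mt4 is the metallothionein of stratified squamous epithelium and has no established role in the brain. It was measured at 5.71, 6.05 and 5.72 in FSS mice, against 5.86, 5.87 and 5.56 in control mice, so FSS mouse 2 was highest and control mouse 3 lowest. Its mean level over all mice, 5.80, lay between the 5th and 95th percentiles (2.74 and 6.21) of 1194 olfactory and vomeronasal receptor genes, which are not known as hippocampal genes, and above 88.3% of them. Levels of different probes are not strictly comparable, so this places Mt4 only roughly. The log2 fold change of 0.060 (SE 0.12, adjusted p = 0.984 by limma) had the widest interval of the 8 genes, from -0.23 to 0.35. It turned to -0.053 without FSS mouse 2 and to -0.041 without control mouse 3.

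Mtf1, the transcription factor that senses zinc and drives Mt1, Mt2 and Slc30a1, had levels of 8.74, 8.61 and 8.64 in FSS mice, against 8.75, 8.76 and 8.69 in control mice. FSS mice 2 and 3 lay below every control mouse, and FSS mouse 1 lay among the controls. The mean was 8.66 ± 0.071 in FSS mice and 8.73 ± 0.039 in control mice (SD, n = 3 each), with a log2 fold change of -0.070 (SE 0.052, adjusted p = 0.958 by limma, 95% interval from -0.19 to 0.054). The fold change stayed between -0.11 and -0.043 when any 1 mouse was left out. None of these values passed an unadjusted p of 0.05.

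Slc30a1 encodes ZnT1, the exporter of zinc at the plasma membrane and a target of Mtf1. It had levels of 8.16, 8.11 and 8.19 in FSS mice, against 8.10, 8.20 and 8.21 in control mice, and every FSS mouse lay inside the range of the controls. Its log2 fold change was -0.015 ± 0.050 (SE, adjusted p = 0.992 by limma, 95% interval from -0.13 to 0.10).

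Slc30a3 encodes ZnT3, which loads zinc into synaptic vesicles of glutamatergic neurons and is abundant in mossy fibers. Its levels were 10.98, 11.17 and 11.00 in FSS mice, against 11.05, 11.13 and 11.01 in control mice. FSS mouse 2 lay above all controls and FSS mice 1 and 3 lay below them, so the FSS group was the more scattered one. The mean was 11.05 ± 0.11 in FSS mice and 11.06 ± 0.058 in control mice (SD, n = 3 each). The log2 fold change was -0.015 ± 0.065 (SE, adjusted p = 0.994 by limma, 95% interval from -0.17 to 0.14). The sign was not fixed by the data, since the log2 fold change was 0.022 without FSS mouse 1 and -0.075 without FSS mouse 2. Dentate granule cells are the neurons that send the mossy fibers. Of 7 markers of these cells, 3 were higher in FSS mice at an unadjusted p under 0.05, among them Prox1 (log2 fold change 0.15, limma adjusted p = 0.943), and 0 were lower. Over all rows 2.49% were higher and 2.66% lower, and these markers were chosen with earlier results of these data known. Their mean level was 9.28 to 9.30 in FSS mice and 9.10 to 9.26 in control mice. Without control mouse 2 the count was 0, without FSS mouse 2 or control mouse 3 it was 1, without FSS mouse 1 or FSS mouse 3 it was 2, and without control mouse 1 it was 4.

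Slc39a14 encodes ZIP14, an importer of zinc, iron and manganese that inflammation induces in the liver. It had levels of 8.30, 8.07 and 8.25 in FSS mice, against 8.25, 8.12 and 8.20 in control mice. FSS mice 1 and 3 lay above every control mouse and FSS mouse 2 lay below. The mean was 8.21 ± 0.13 in FSS mice and 8.19 ± 0.064 in control mice (SD, n = 3 each). Its log2 fold change was 0.018 ± 0.073 (SE, adjusted p = 0.994 by limma, 95% interval from -0.16 to 0.19). It was -0.030 when FSS mouse 1 was left out, and 0.089 when FSS mouse 2 was left out.

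Slc30a3 and Slc39a14 ran opposite to each other among the mice. Pearson's r was -0.94 over 6 mice (exact permutation p = 0.00833, adjusted p = 0.156 over 28 pairs) and Spearman's rho was -0.94 (exact permutation p = 0.0167, adjusted p = 0.467). Without FSS mouse 2 and control mouse 2, the mice farthest from the median of Slc30a3, r was -0.50. Leaving out the farthest mice also narrows the range, so this cannot show whether the relation rests on them. Mt4 followed Slc30a3 with r = 0.87 (exact permutation p = 0.0167, adjusted p = 0.156) and rho = 0.83 (exact permutation p = 0.0583, adjusted p = 0.70), and r was 0.92 without FSS mouse 2 and control mouse 3. No pair passed after adjustment. The arrays differ in the spread of all their values, and this moved with the levels. The SD over all rows was 2.22 to 2.23 for FSS mouse 2, control mouse 1 and control mouse 2, and 2.26 to 2.27 for the others. All 3 arrays of narrower spread had higher Slc30a3 and higher Mt4 than all 3 arrays of wider spread. The sets of narrower and wider spread were taken from these same values. A p-value under a block of these sets is therefore not independent of how the block was made. With the spread as a block in limma, the log2 fold change of Mt4 was 0.17 (SE 0.040, unadjusted p = 0.00627, limma adjusted p = 0.801). Within the narrower arrays, with 1 FSS mouse and 2 controls, it was 0.19, and within the wider arrays, with 2 FSS mice and 1 control, 0.15. For Slc30a3 these differences were 0.079 and -0.022, and for Slc39a14 -0.12 and 0.077. They were -0.024 and -0.18 for Mt1, and 0.046 and -0.22 for Mt2. Each set of 3 arrays is too small for a correlation of its own. The part of the array spread in the correlations was not tested.

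**Figure D2:**
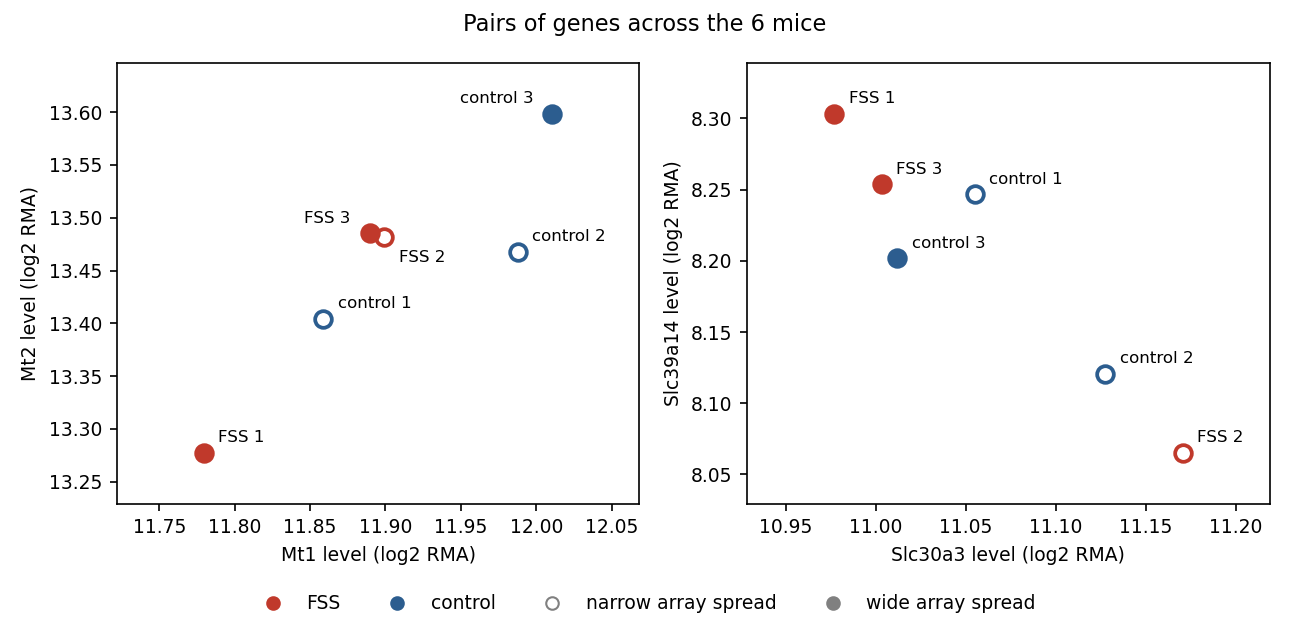
Levels (log2 RMA) of Mt1 and Mt2 (left) and of Slc30a3 and Slc39a14 (right), with each circle a mouse, red for FSS and blue for control. Open circles are arrays of narrower spread and filled circles arrays of wider spread. Mt1 and Mt2 run together (r = 0.89), and Slc30a3 and Slc39a14 run opposite (r = -0.94).

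The other zinc carriers were then examined. Of the 8 SLC30 exporters outside the set, 0 were higher and 0 lower in FSS mice at an unadjusted p under 0.05, with log2 fold changes from -0.017 to 0.12 and a median of 0.027. The largest was that of Slc30a6, which encodes ZnT6, a carrier of the secretory pathway. Slc30a6 had levels of 8.94, 8.80 and 8.90 in FSS mice, against 8.81, 8.72 and 8.74 in control mice, so FSS mouse 2 overlapped with control mouse 1 (log2 fold change 0.12 ± 0.053 SE, adjusted p = 0.943 by limma). Of the 13 SLC39 importers outside the set, 0 were higher and 0 lower, with log2 fold changes from -0.067 to 0.12 and a median of -0.0034. The largest was that of Slc39a4, the zinc importer of the intestine, at 6.40, 6.36 and 6.28 in FSS mice and 6.30, 6.13 and 6.25 in control mice (log2 fold change 0.12 ± 0.061 SE, adjusted p = 0.943 by limma). All of these carriers had 95% intervals between -0.5 and 0.5. Slc30a6 passed an unadjusted p of 0.05 without FSS mouse 2 (log2 fold change 0.16) and with array weights, a variance trend, the replicate number as a block or dim rows removed, with adjusted p from 0.657 to 1.00 over its alternatives by limma.

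**Figure D3:**
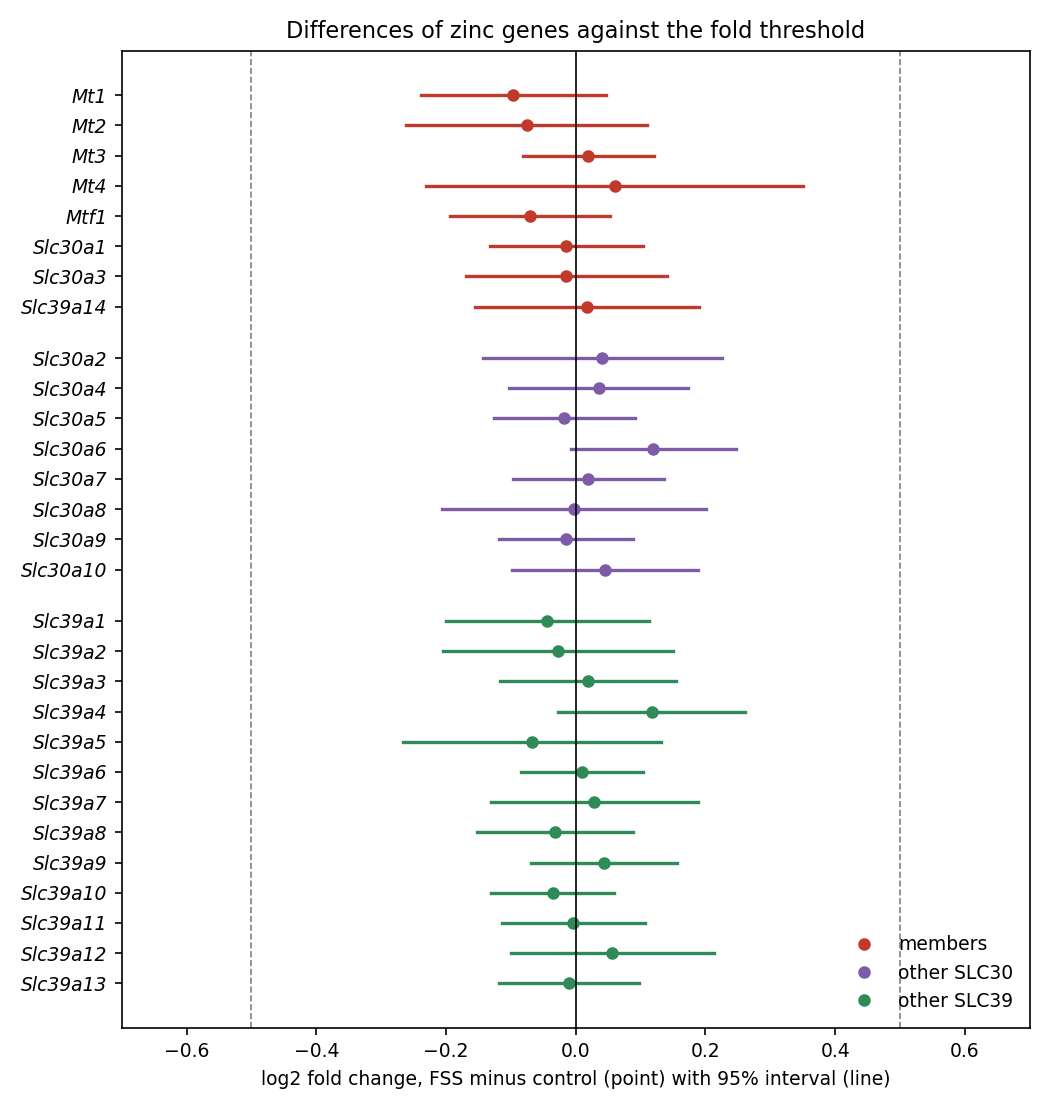
Difference between FSS and control mice (x axis, log2 fold change) of the 8 genes and of the other SLC30 and SLC39 carriers (y axis), with points for the estimate and lines for the 95% interval from limma. Dashed lines mark the fold threshold of 0.5, which no interval reaches, and the extremes of the 8 genes are -0.096 for Mt1 and 0.060 for Mt4.

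Genes of other metals and of the response to metals and oxidants were examined next. Of 10 genes of copper handling, 1 was higher at an unadjusted p under 0.05 and 0 were lower, with a median log2 fold change of 0.052. Over all rows 2.49% were higher and 2.66% lower. The higher gene was Ccs, the chaperone that delivers copper to Sod1, with a log2 fold change of 0.12 (SE 0.047, adjusted p = 0.943 by limma). Ccs did not pass without control mouse 1, without any 1 of the FSS mice, with the array spread as a block or with a variance trend. Of 10 genes of iron handling, Steap3, an endosomal ferric reductase, was higher (log2 fold change 0.17 ± 0.053 SE, adjusted p = 0.943 by limma) and 0 were lower, and Steap3 did not pass without FSS mouse 3 or control mouse 1. Of 9 measured genes induced by metals and oxidants, 1 was higher and 0 were lower. This was Slc7a11, the cystine importer that supplies glutathione synthesis, which had levels of 10.01, 10.27 and 10.06 in FSS mice, against 9.87, 9.59 and 9.60 in control mice. All FSS mice lay above all control mice (log2 fold change 0.43 ± 0.10 SE, adjusted p = 0.943 by limma, exact permutation p = 0.1), and the log2 fold change was 0.35 to 0.52 without any 1 mouse. The heme oxygenase gene Hmox1, which heavy metals induce like Mt1 and Mt2, was chosen after its value was seen and had a log2 fold change of 0.072 (SE 0.055, adjusted p = 0.96 by limma).

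Since glucocorticoids induce Mt1 and Mt2, a list of glucocorticoid-induced genes was set beside them. Of 15 measured genes, 4 were lower in FSS mice at an unadjusted p under 0.05 and 0 were higher, with a median log2 fold change of -0.11. Over all rows 2.66% were lower and 2.49% higher, and the list was chosen with earlier results of these data known. Plin4, a lipid droplet protein, had the largest difference of the list (log2 fold change -0.74 ± 0.22 SE, adjusted p = 0.943 by limma). The count of lower genes was 1 without FSS mouse 1, control mouse 2 or control mouse 3, and 5 without FSS mouse 3 or control mouse 1. The methods' t-test passed 0 of the 15 genes, Plin4 included. The mean level of the list was 9.06, 9.14 and 9.25 in FSS mice and 9.18, 9.37 and 9.40 in control mice, so FSS mouse 1 was lowest and control mouse 3 highest here too. Whether glucocorticoids set the levels of Mt1 and Mt2 in these mice was not tested.

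Astrocytes are a main source of Mt1 and Mt2, and their markers went both ways. Of 15 astrocyte markers, 3 were higher and 3 lower at an unadjusted p under 0.05, with a median log2 fold change of 0.027. Over all rows 2.49% were higher and 2.66% lower. Gfap, the intermediate filament of astrocytes, was higher (log2 fold change 0.16), as was the water channel gene Aqp4 (log2 fold change 0.33 ± 0.078 SE, adjusted p = 0.943 by limma), and Fgfr3, a growth factor receptor, was lower (log2 fold change -0.15 ± 0.060 SE, adjusted p = 0.943 by limma). Aqp4 passed without any 1 mouse, while over all astrocyte markers 1 or 2 were higher and 0 or 1 lower in these omissions. Mean levels of the list were 10.75 to 10.80 in FSS mice and 10.71 to 10.76 in control mice. Choroid plexus and meninges also express Mt1 and Mt2 and border the hippocampus. Of 8 measured choroid plexus markers 1 was higher and 0 were lower, and of 10 meningeal markers 2 were higher and 0 lower. The higher choroid plexus marker was Ttr, the transport protein transthyretin (log2 fold change 0.95 ± 0.36 SE, adjusted p = 0.943 by limma). Its log2 fold change stayed at 0.95 with a variance trend and by the methods' t-test, and was 0.74 without FSS mouse 1 and 1.01 without FSS mouse 3, and its unadjusted p was over 0.05 in each of these. Leaving out control mouse 3 lowered it to 0.55. Without FSS mouse 2 there was 1 lower gene in each of these lists. The mean levels were 7.11 to 7.29 in FSS mice and 6.88 to 7.12 in control mice for the choroid plexus, and 7.96 to 8.26 in FSS mice and 7.92 to 8.03 in control mice for the meninges. General neuronal markers, of which 0 of 6 passed, had mean levels of 12.35 to 12.37 in FSS mice and 12.33 to 12.36 in control mice.

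The fold changes of the 8 genes stayed small under every alternative that was run. The largest in size was 0.17, for Mt4 under the block of array spread, and no 95% interval of the 8 genes reached -0.5 or 0.5 under any alternative. Mt1, Mt2 and Mtf1 had negative fold changes under all 16 alternatives that gave a fold change. Some of these alternatives leave the fold change of the 8 genes as it is by construction, so they could not turn a sign. These were all rows, a variance trend, the methods' t-test, the replicate block, the filter on dim rows and rows averaged per symbol. The sign of Mt3, Mt4, Slc30a1, Slc30a3 and Slc39a14 turned in at least 1 of the other alternatives.

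**Figure D4:**
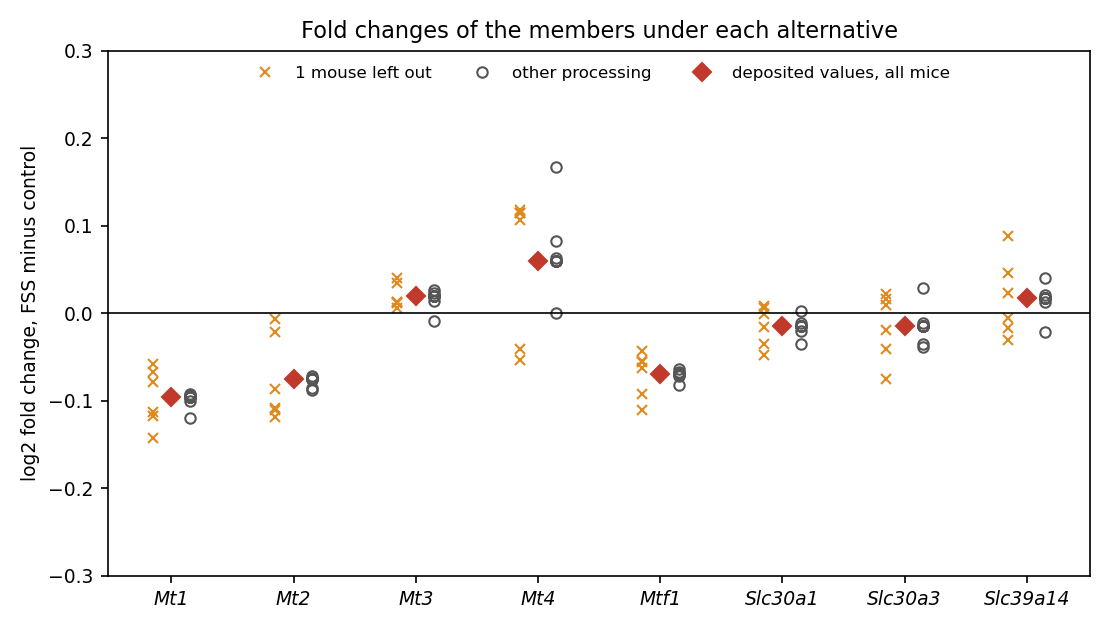
Log2 fold change (FSS minus control, y axis) of the 8 genes (x axis) from the deposited values of all mice (diamonds), with 1 mouse left out (crosses) and under the other processing alternatives (circles). Mt1 stays below 0, from -0.14 to -0.058, and no value passes -0.2 or 0.2.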

How the data were processed

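RNA of the hippocampus of 3 FSS and 3 control mice was measured on Affymetrix Mouse Gene 1.0 ST arrays, with no pooling of mice. The study's methods mention a further FSS mouse on arrays, which was not analysed here. The deposited values are log2 levels, which the authors made by RMA in Affymetrix Expression Console. RMA scales the arrays to each other, which can hide a change common to most genes, and its background step can narrow differences of dim genes. The deposited arrays still differ slightly, with medians from 7.32 to 7.35 and SDs from 2.22 to 2.27. Of 28944 rows, 21789 carry 1 gene symbol, 1621 several and 5534 none here. All 8 genes examined matched RefSeq by gene ID with unchanged symbols. No genome build is given in the sources used here, so no coordinates are printed. RefSeq start positions were used only for the order of genes in the metallothionein cluster. The difference between FSS and control mice was fitted without covariates across the 21789 rows (limma 3.58.1, R 4.3.3, functions lmFit and eBayes), p-values were adjusted over all rows by the Benjamini-Hochberg method, and the fit was tested on simulated data. Of several rows of 1 symbol, that of highest mean was taken. The genes and lists were chosen with earlier results of these data known, and no p-values were computed for the counts of a list. For a list as a whole, permutation p-values were computed only for correlations of its mean level with Mt1 and Mt2. Besides the 8 genes, the text names up to 3 members of a list with an unadjusted p under 0.05, smallest p first, or the member with the largest change where none passed, and the 5 genes most like Mt1 and Mt2. The replicate numbers of the titles were checked as pairs. Alternatives were a variance trend, the methods' t-test, other normalizations, a filter on dim rows, all rows, array weights, blocks, rows averaged per symbol, other thresholds and leaving out each mouse.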

Additional observations from a re-analysis of the deposited data

How the results depend on the processing

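The number of genes called over all rows, 6 higher and 9 lower in FSS mice, depended on the processing. That of the 8 zinc genes was 0 throughout, which says little of 8 genes where 0.0688% of all rows were called. The counts were 11 higher and 14 lower with all 28944 rows, 1 higher and 3 lower with rows above the median level alone (fewer rows were tested), 542 higher and 579 lower with no fold limit, and 0 and 0 at an adjusted p of 0.05. The methods' t-test called 3 higher and 5 lower genes, and 0 after Benjamini-Hochberg adjustment. The methods name this test in general and give none for the array comparison, and these are not the counts the study reported. Leaving out 1 mouse gave 6 to 12 higher and 5 to 18 lower genes. At an unadjusted p under 0.05, 1 of the 8 genes passed with the array spread as a block (Mt4, log2 fold change 0.17), where 5.92% of all rows did, and 1 with a variance trend and robust moderation (Mt1, -0.096), where 5.62% did. The block of array spread was made from the same values that it adjusts. Groups did not overlap for 0 to 2 of the 8 genes when 1 mouse was left out, against 17.2% to 26.3% of all rows in the same omissions. Signs turned for Slc30a3 (0.029) and Slc39a14 (-0.021) with the spread block, for Mt4 (-4.9e-05) and Slc30a1 (0.0026) with array weights, and for Mt3 (-0.0093) with quantile normalization. The cause was not tested. Leaving out 1 mouse gave log2 fold changes of -0.053 to 0.12 for Mt4, -0.048 to 0.0077 for Slc30a1, -0.075 to 0.022 for Slc30a3 and -0.030 to 0.089 for Slc39a14. Over all alternatives, 110 values of the 8 genes kept their sign and their side of an unadjusted p of 0.05, 15 turned sign and 2 passed that threshold. The 110 include values from alternatives that leave the fold change as it is by construction, where the sign could not turn. Same-numbered FSS and control mice correlated in their deviations from the group means with r of -0.048, 0.14 and 0.24, so the numbers were not taken as pairs. With the replicate number as a block, 7 genes were called higher and 11 lower and 0 of the 8 zinc genes passed (Mt1 log2 fold change -0.096, limma adjusted p = 0.734). Mt4 lies below the median level and had no value in the filtered table.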

Other observations

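Microglial markers lay higher in FSS mice for 3 of 8 genes at an unadjusted p under 0.05 and lower for 0, with a median log2 fold change of 0.15. Over all rows 2.49% were higher and 2.66% lower, and this list was chosen with earlier results of these data known. Trem2, a receptor of microglia, had levels of 8.56, 8.48 and 8.64 in FSS mice, against 8.29, 8.37 and 8.41 in control mice (log2 fold change 0.20 ± 0.059 SE, adjusted p = 0.943 by limma). The others were Siglech (0.16) and Cx3cr1 (0.17), and 2 to 5 genes passed when 1 mouse was left out. Of 7 endothelial, 6 oligodendrocyte and 7 pyramidal cell markers, 0 passed, and the members with the largest differences were Itm2a (0.21), Mobp (-0.21) and Wfs1 (-0.11). Without FSS mouse 2, which had the lowest mean level of the oligodendrocyte markers (10.64, against 10.95 and 10.96 in the other FSS mice and 10.82 to 10.88 in control mice), 3 of the 6 passed as higher and their median log2 fold change was 0.13, against 0.013 with all mice. Of the endothelial markers, 2 passed as higher without control mouse 1, with a variance trend or with dim rows removed, and 1 without FSS mouse 3 or with the array spread as a block.

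Of 9856 other genes above the median level, those whose pattern over the 6 mice was most like that of Mt1 were Fzd1, Lmo7, Foxo3, Mafk and Hook1, with Pearson's r from 0.97 to 0.98. For Mt2 they were Dzip1l, Pafah1b1, Zfp787, Baiap2l1 and Azin1, with r from 0.96 to 1.00. Of these genes, 62 (0.629%) had r over 0.9 with Mt1 and 29 (0.294%) with Mt2, over 6 mice. Mt2 ranked 73 among the genes most like Mt1.

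Mt1 and Mt2 were also set against the mean level of each of the 15 gene lists over the 6 mice, a set of 30 relations chosen after the values were seen. Mt1 ran with the glucocorticoid-induced genes with Pearson's r = 0.94 (exact permutation p = 0.00972, adjusted p = 0.25) and Spearman's rho = 0.83 (exact permutation p = 0.0583, adjusted p = 0.583). The correlation was 0.83 without the 2 mice farthest from the median of the list and 0.91 for deviations from the group means. Mt2 ran with them less closely (r = 0.81, exact permutation p = 0.0431, adjusted p = 0.25, and rho = 0.71, exact permutation p = 0.136, adjusted p = 0.583), and r was 0.22 without these mice. Mt2 ran opposite to the mean of the other SLC39 importers with r = -0.89 (exact permutation p = 0.0194, adjusted p = 0.25) and rho = -0.94 (exact permutation p = 0.0167, adjusted p = 0.50), and r was -0.99 without the 2 mice farthest from the median. Further lists had correlations of similar size. Mt2 ran opposite to the choroid plexus markers (r = -0.88, rho = -0.77) and to the other SLC30 exporters (r = -0.81, rho = -0.83). Mt1 ran opposite to the choroid plexus markers (r = -0.81, rho = -0.54) and to the microglial markers (r = -0.79, rho = -0.77). For the metal- and oxidant-induced genes, r over the 6 mice was -0.21 with Mt1 and 0.028 with Mt2. For deviations from the group means it was 0.99 with Mt1 and 0.92 with Mt2. Such a correlation of deviations was therefore not particular to the glucocorticoid-induced genes. None of the 30 relations passed after adjustment.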
